A study of Mus musculus with 20 samples.

Results

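The 10 genes described here are markers of Kupffer cells and of macrophages in general (Clec4f, Emr1, Cd68, Marco, Vsig4, Cd163, Cd5l, Timd4, Csf1r and Msr1). They were taken by gene symbol from tables of 37681 genes, and each symbol matched 1 gene in every table. The livers came from male C57/BL6 mice (C57/B6J in the growth protocol) aged 12 weeks that received IL-1β at 20 µg/kg (5 mice, labelled ILB_9577, ILB_9578, ILB_9579, ILB_9582 and ILB_9583) or saline (5 mice, UNT_9574, UNT_9575, UNT_9576, UNT_9580 and UNT_9584, called untreated). Tissue was taken 4 hours later, and the RNA of each mouse was sequenced on both Illumina and Ion Torrent. With 3 alignments for each platform there were 6 tables of read counts, and the Illumina table aligned with STAR is the one described unless another is named. The question was what IL-1β did to these transcripts within a table, and whether the platform changed the answer.

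Kupffer cells are the resident macrophages of the liver. They sit in the sinusoids, where they take bacteria, debris, dying cells and old red cells out of the blood with a set of scavenger, complement and lectin receptors. Clec4f, a C-type lectin, is known in the mouse as a marker of Kupffer cells, and Vsig4 and Timd4 mark resident Kupffer cells more than recruited ones. Emr1 (the F4/80 antigen), Csf1r and Cd68 are shared by many macrophages. IL-1β is an inflammatory cytokine to which many cells of the liver respond.

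These were whole-liver libraries with no sorting, so fewer cells of a type and less RNA per cell cannot be told apart. All 10 genes were detected. In the Illumina STAR table the lowest single count was 14 (Timd4) and the highest 923 (Clec4f), in libraries of 10568530 to 11046256 reads in all. Levels are given as TMM-scaled CPM, the counts relative to the scaled total of the library, and counts were lowest for Timd4 (14 to 65 reads), Cd68 (22 to 83 reads) and Marco in the untreated mice (lowest 26 reads). The values were spread widely between mice of a group. Mouse UNT_9574 was the highest of the untreated mice for 10 of the 10 genes in every one of the 6 tables. Mouse ILB_9579 was the lowest of the treated mice for 9 of 10 in the Illumina STAR table and for 8 to 10 in the others.

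The stretches upstream of 3 of the genes are shown because their transcripts went different ways. Clec4f and Vsig4 fell and Marco rose. Each is the 250 bases before the RefSeq start on GRCm38.p6, written 5′ to 3′ on the strand of the gene. These positions belong to that build and not to the one the counts were made on. Of the 10 genes, 7 matched an entry of the RefSeq promoter table by symbol. Capitals mark 2 motifs searched on both strands, GAGGAA (a core bound by PU.1, a factor of the macrophage lineage) and a form of the NF-κB motif, GGG and TTTCC with 2 bases of any kind between them.
Clec4f, chr6:83656117-83656366, minus strand: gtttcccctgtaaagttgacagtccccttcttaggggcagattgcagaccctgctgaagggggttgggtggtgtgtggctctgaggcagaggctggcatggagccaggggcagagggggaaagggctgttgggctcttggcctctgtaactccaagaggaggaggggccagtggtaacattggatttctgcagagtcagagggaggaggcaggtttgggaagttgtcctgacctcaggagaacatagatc
Vsig4, chrX:96293439-96293688, minus strand: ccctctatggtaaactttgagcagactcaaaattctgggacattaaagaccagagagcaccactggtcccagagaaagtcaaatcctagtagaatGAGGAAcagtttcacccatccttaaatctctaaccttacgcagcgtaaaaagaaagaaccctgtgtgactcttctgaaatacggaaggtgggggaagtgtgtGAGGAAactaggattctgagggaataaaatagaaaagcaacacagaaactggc
Marco, chr1:120505025-120505274, minus strand: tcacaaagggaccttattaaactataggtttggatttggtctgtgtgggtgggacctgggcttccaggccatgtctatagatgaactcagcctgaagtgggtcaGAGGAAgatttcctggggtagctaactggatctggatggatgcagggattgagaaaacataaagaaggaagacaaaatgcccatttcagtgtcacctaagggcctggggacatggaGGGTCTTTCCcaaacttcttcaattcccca

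The Clec4f stretch held neither motif. The Vsig4 stretch held 2 copies of GAGGAA, and the Marco stretch held 1 copy of GAGGAA and 1 match to the NF-κB form, 30 to 21 bases before the start. Among all 32851 RefSeq promoters of the same length, 23.3% held GAGGAA and 1.41% held the NF-κB form. Another motif, TGANTCA (that of AP-1), was in none of these 3 and in 6.75% of all promoters. Of the other 4 stretches, that of Cd68 held 1 GAGGAA and 2 TGANTCA, that of Cd5l held 1 GAGGAA on the other strand, and those of Cd163 and Timd4 held none. These are matches of letters only.

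Marco and Msr1, which are both class A scavenger receptors for bacteria and modified lipoproteins, rose with IL-1β. Vsig4, Clec4f and Csf1r fell. Thus 2 of the 10 genes were higher and 3 were lower at an adjusted p below 0.05 (edgeR's quasi-likelihood test, Benjamini-Hochberg over 15578 genes). Of all genes tested, 45.7% were called, 22.7% higher and 22.9% lower, so a share of 5 in 10 was close to that of all genes. Of the called genes 3541 were higher and 3575 lower, and without TMM scaling the split was 2746 and 4335. The median log2 fold change of the 10 genes was -0.51, with 7 below 0, beside a median of 0.0 and 48.5% below 0 over all genes tested.

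**Figure D1:**
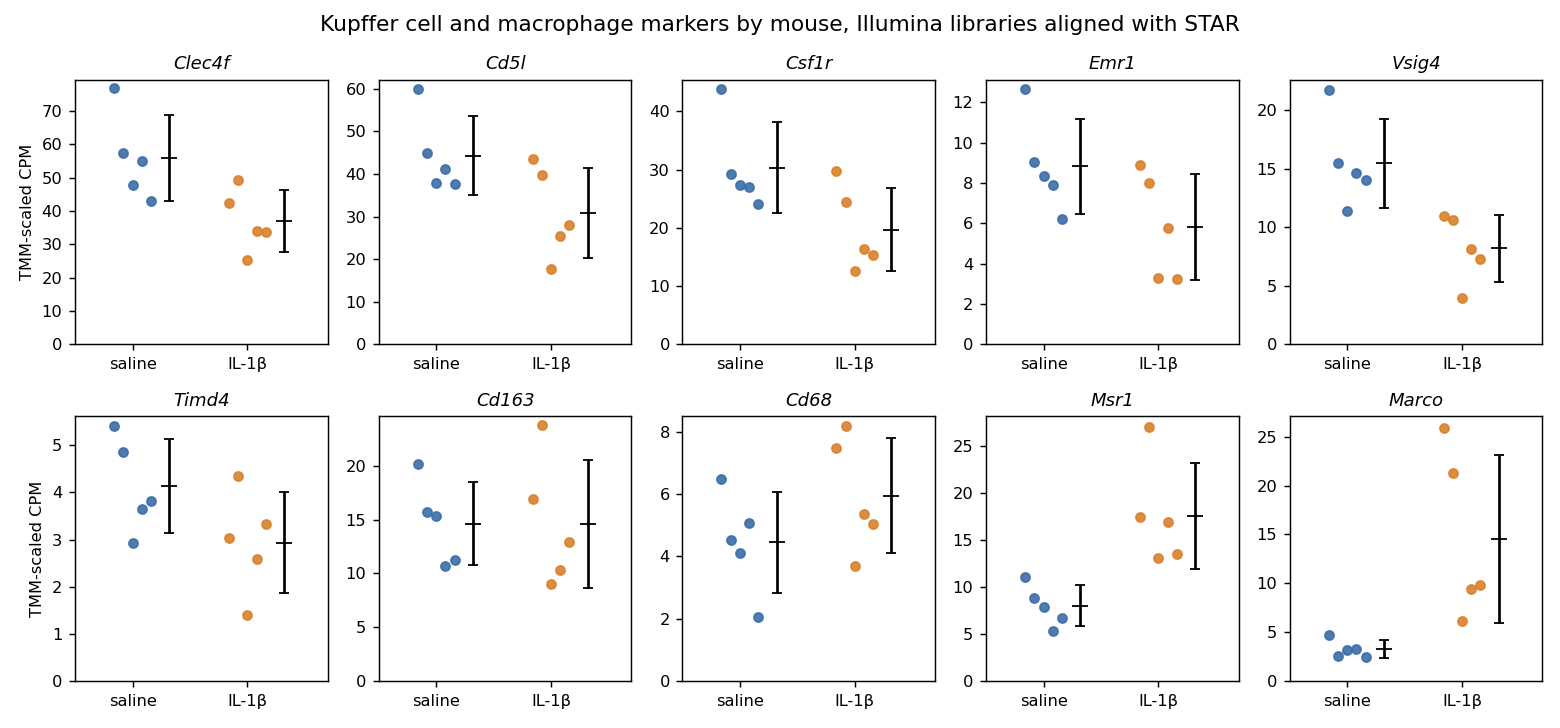
Level of each of the 10 genes in every mouse in the Illumina STAR table (vertical axis, TMM-scaled CPM, starting at 0). Points are mice, blue untreated and orange IL-1β, in the order of their numbers, and black bars are the mean ± SD of 5 mice. Only the points of Marco, Msr1 and Vsig4 are separated between the groups.

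Marco (ENSMUSG00000026390, chromosome 1, 122371115 to 122401661, minus strand, NCBIM37) stood at 4.75, 2.55, 3.18, 3.29 and 2.42 CPM in untreated mice UNT_9574, UNT_9575, UNT_9576, UNT_9580 and UNT_9584. In treated mice ILB_9577, ILB_9578, ILB_9579, ILB_9582 and ILB_9583 it stood at 25.9, 21.3, 6.16, 9.42 and 9.87 CPM. Every treated mouse was above every untreated one, and the treated mice themselves fell into higher values (ILB_9577 and ILB_9578) and lower values (the other 3). The means were 3.24 ± 0.925 and 14.5 ± 8.56 CPM (SD, n = 5 each), 4.49-fold higher with IL-1β. The log2 fold change was 2.16 (SE 0.36, adjusted p = 0.000155, edgeR).

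Msr1 (ENSMUSG00000025044, chromosome 8, 40667054 to 40728032, minus strand) was at 11.1, 8.85, 7.90, 5.33 and 6.69 CPM in the untreated mice in the same order. With IL-1β it was at 17.5, 27.01, 13.01, 16.9 and 13.5 CPM. The groups did not overlap, and the highest treated mouse here was ILB_9578, whereas for Marco it was ILB_9577. Its mean was 2.204-fold higher with IL-1β, with a log2 fold change of 1.14 (SE 0.22, adjusted p = 0.000592).

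Vsig4 is the complement receptor of the immunoglobulin family through which Kupffer cells bind particles coated with C3 fragments (ENSMUSG00000044206, chromosome X, 93442542 to 93488777, minus strand). It was at 21.7, 15.5, 11.4, 14.7 and 14.0 CPM in the untreated mice and at 11.0, 10.7, 3.97, 8.13 and 7.25 CPM in the treated mice. The lowest untreated value, 11.4, was just above the highest treated value, 11.0. Its mean was 1.89-fold lower with IL-1β, with a log2 fold change of -0.91 (SE 0.23, adjusted p = 0.00471), the strongest decrease among the 10 genes. Marco, Msr1 and Vsig4 were the 3 of 10 genes whose groups did not overlap, beside 33.9% of all genes tested.

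Clec4f (ENSMUSG00000014542, chromosome 6, 83594536 to 83606181, minus strand) was at 76.8, 57.3, 47.8, 55.0 and 43.0 CPM in the untreated mice. In the treated mice it was at 42.5, 49.4, 25.2, 33.9 and 33.6 CPM. The groups overlapped, since mouse ILB_9578 was above untreated mice UNT_9576 and UNT_9584. The mean was 1.52-fold lower, with a log2 fold change of -0.60 (SE 0.18, adjusted p = 0.012), and this call held without any 1 of the 10 mice.

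Csf1r is the receptor for the growth factors Csf1 and Il34, on which Kupffer cells depend. It was at 43.9, 29.3, 27.4, 26.9 and 24.2 CPM in the untreated mice and at 29.8, 24.5, 12.5, 16.4 and 15.3 CPM in the treated mice. Mice ILB_9577 and ILB_9578 lay within the untreated range and the other 3 treated mice lay below it. The mean was 1.54-fold lower, with a log2 fold change of -0.62 (SE 0.22, adjusted p = 0.0304). The call was lost without untreated mouse UNT_9574 (-0.46, adjusted p = 0.0915), and also without treated mouse ILB_9579, ILB_9582 or ILB_9583 (adjusted p = 0.0733, 0.0658 and 0.0757). The exons of Csf1r overlap those of Hmgxb3 on the other strand, which had at most 255 reads in a library. Whether the counting used strand is not given in the sources used here, so reads of the overlap could belong to either gene.

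The other 5 genes did not pass the test. Cd5l, a secreted scavenger protein of tissue macrophages, was nearest to it. It was at 60.0, 45.0, 37.8, 41.1 and 37.6 CPM in the untreated mice and at 43.4, 39.7, 17.7, 25.4 and 28.1 CPM in the treated mice. The treated mice ILB_9577 and ILB_9578 lay within the untreated range and the other 3 lay below it, as for Csf1r. The log2 fold change was -0.52 (SE 0.21, adjusted p = 0.052), and the gene was called without mouse ILB_9577 (adjusted p = 0.0142), ILB_9578 (0.0288), UNT_9576 (0.0494) or UNT_9584 (0.0487). Without any 1 of the other 6 mice the adjusted p was 0.0636 to 0.141.

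Emr1 was at 6.23 to 12.7 CPM in the untreated mice and at 3.22 to 8.92 CPM in the treated mice, with a log2 fold change of -0.60 (SE 0.27, adjusted p = 0.0907). Without treated mouse ILB_9577 the adjusted p was 0.0278. Timd4, a receptor for phosphatidylserine on dying cells, was at 2.92 to 5.41 and 1.39 to 4.34 CPM, with a log2 fold change of -0.49 (SE 0.26, adjusted p = 0.136). Without treated mouse ILB_9578 its adjusted p was 0.0486. In both genes the groups overlapped, and the size of the fitted difference was close to that of Clec4f and Csf1r with a larger standard error.

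Cd163, the receptor for complexes of hemoglobin and haptoglobin, had nearly the same mean in both groups. It was at 20.2, 15.8, 15.4, 10.7 and 11.2 CPM in the untreated mice and at 17.0, 23.9, 9.04, 10.3 and 12.9 CPM in the treated mice. The treated values ran both above and below the untreated ones, and the log2 fold change was -0.0048 (SE 0.24, adjusted p = 1). Cd68, a glycoprotein of late endosomes and lysosomes, was at 2.04 to 6.49 CPM in the untreated and 3.67 to 8.18 CPM in the treated mice, with a log2 fold change of 0.42 (SE 0.27, adjusted p = 0.236). Cd68 was the only member beside Marco and Msr1 with a fitted value above 0.

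The same mice tended to be high or low for most of the genes. The summed level of the 10 genes was 263, 193, 166, 174 and 151 CPM in untreated mice UNT_9574, UNT_9575, UNT_9576, UNT_9580 and UNT_9584, and 206, 217, 95.9, 134 and 132 CPM in treated mice ILB_9577, ILB_9578, ILB_9579, ILB_9582 and ILB_9583. Treated mice ILB_9577 and ILB_9578 thus lay inside the untreated range and the other 3 lay below it. In mouse UNT_9574 the pan-leukocyte, monocyte, neutrophil, lymphocyte and stellate cell lists were also at their highest sum among the untreated mice. The hepatocyte list was at its lowest there, 92887 CPM against 108373 to 112804 CPM in the other 4. From the highest, this mouse was at rank 2 for accessory Kupffer genes, sinusoidal endothelium and ligands, and at rank 4 for macrophage transcription factors. On Ion Torrent with STAR it was at rank 3 for monocyte genes and rank 1 for accessory Kupffer genes. In mouse ILB_9579 the pan-leukocyte and neutrophil sums were the lowest of the treated mice. The part of these differences in the results was not tested.

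**Figure D2:**
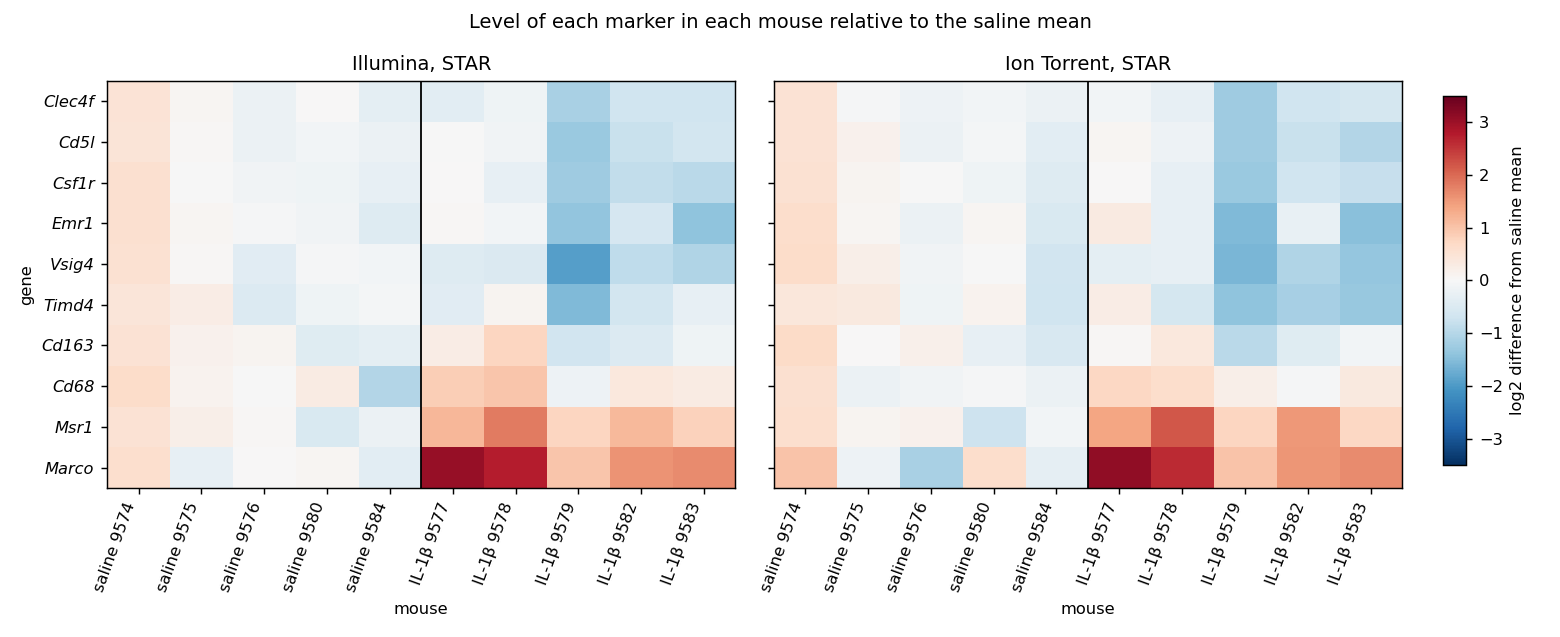
Level of each gene (rows) in each mouse (columns, 5 untreated left of the line and 5 treated right of it), as the log2 difference from the mean log2 CPM of the untreated mice, for Illumina and Ion Torrent with STAR. Red is above and blue below that mean. The column of mouse UNT_9574 (saline) is red for all 10 genes on both platforms, and the treated mice are red for Marco and Msr1.

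The comparison was repeated in the 5 other tables, which hold the same mice and so are no new animals. Marco, Msr1, Vsig4, Clec4f and Csf1r were called in 6 of 6 tables, beside 45.7%, 47.5% and 47.4% of all genes on Illumina with STAR, GSNAP and STAR + Bowtie2 and 42.1%, 46.4% and 46.7% on Ion Torrent. The log2 fold change ran from 1.96 to 2.19 for Marco, from 1.07 to 1.35 for Msr1, from -1.01 to -0.82 for Vsig4, from -0.68 to -0.53 for Clec4f and from -0.63 to -0.59 for Csf1r. Cd5l was called in 2 of the 6 tables (-0.58 to -0.48), and Emr1 (-0.70 to -0.38), Timd4 (-0.75 to -0.34), Cd163 (-0.21 to -0.0048) and Cd68 (0.29 to 0.42) in 0. No gene changed the sign of its fitted value between tables. The separation of the groups was less stable than the calls. Marco and Msr1 did not overlap in 5 tables each and Vsig4 in 2. The share of all genes without overlap was taken only for the STAR tables, at 33.9% on Illumina and 31.1% on Ion Torrent.

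**Figure D3:**
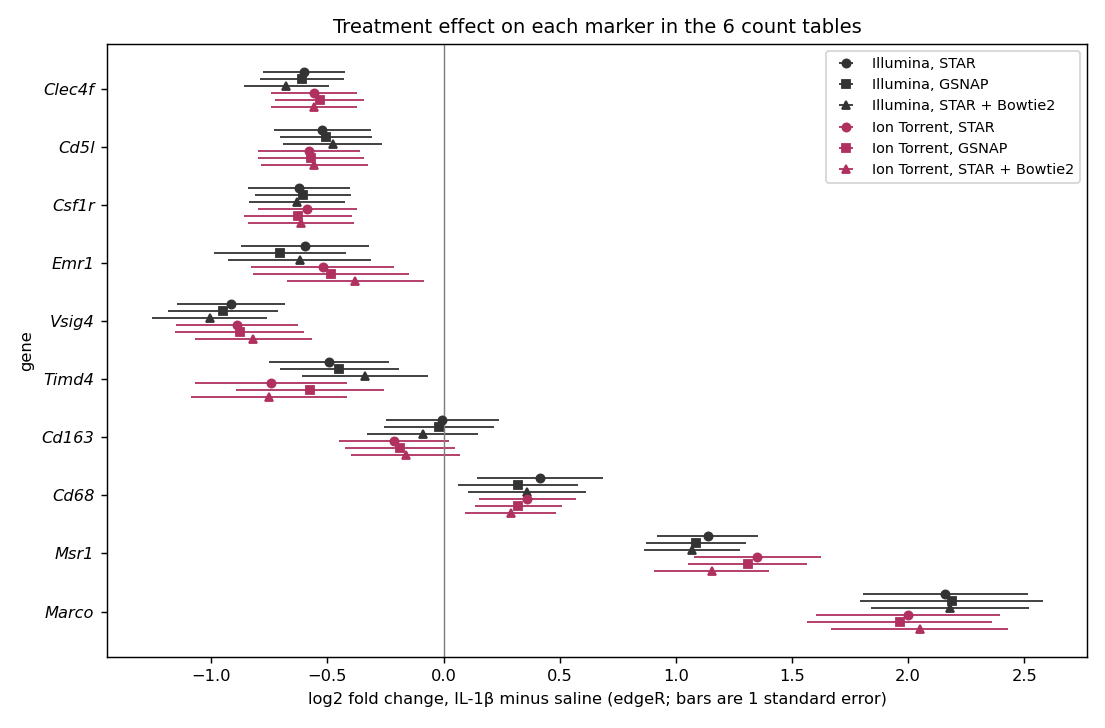
Log2 fold change of each gene, IL-1β minus untreated (horizontal axis, edgeR), in the 6 tables. Symbols mark the aligner, black is Illumina and red Ion Torrent, and bars are 1 standard error. The 6 estimates of a gene lie on the same side of 0, from 1.96 to 2.19 for Marco and from -1.01 to -0.82 for Vsig4.

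On Ion Torrent with STAR, Marco was at 4.64, 2.08, 1.06, 3.57 and 1.88 CPM in untreated mice UNT_9574, UNT_9575, UNT_9576, UNT_9580 and UNT_9584 and at 19.9, 14.3, 4.69, 6.82 and 7.39 CPM in treated mice ILB_9577, ILB_9578, ILB_9579, ILB_9582 and ILB_9583. The treated mice kept their order, and the gap between the groups was small, between mouse UNT_9574 at 4.64 and mouse ILB_9579 at 4.69. Msr1 was at 7.03, 5.05, 5.24, 2.85 and 4.39 CPM in the untreated and 12.3, 21.3, 7.94, 13.4 and 7.83 CPM in the treated mice. Vsig4 overlapped on this platform, because untreated mouse UNT_9584 was at 8.71 CPM while treated mice ILB_9577 and ILB_9578 were at 11.1 and 11.5 CPM. Marco and Msr1 were the 2 of 10 genes without overlap in this table, beside 31.1% of all genes.

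To ask whether the effect of IL-1β depended on the platform, edgeR was fitted to all 20 STAR libraries, with the mouse as a block and an interaction of platform and treatment. The interaction term was called for 0 of the 10 genes, with adjusted p-values from 0.790 up, and for 0.00642% of all genes tested. At an unadjusted p below 0.05 this term picked out 7.00% of all genes and 0 of the 10, and over all genes DESeq2 called 3 and limma-voom 0. Over all genes edgeR called 10 without mouse UNT_9584, and 1 or 2 without any 1 of the other mice. With all mice it called 10 with GSNAP and 12 with STAR + Bowtie2. Among the 10 genes, in the fit to all 20 STAR libraries, the term with the smallest p was that of Msr1. It was 0.21 (SE 0.15) higher on the log2 scale on Ion Torrent. The largest in size was that of Timd4, at -0.25 (SE 0.29). For Marco it was -0.12 (SE 0.21) and for Clec4f 0.046 (SE 0.098), and the error of a term thus ran from 0.098 for Clec4f, beside an Illumina effect of -0.60, to 0.29 for Timd4, beside an effect of -0.49.

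The relation of the genes to each other within a library does not depend on the scaling of the library. For each library the log2 ratio of a gene to Emr1 was taken from counts with 0.5 added, as a description with no test. For Clec4f there were 6.07, 6.35, 5.74, 6.96 and 6.91 reads per Emr1 read in untreated mice UNT_9574, UNT_9575, UNT_9576, UNT_9580 and UNT_9584 and 4.77, 6.19, 7.70, 5.90 and 10.4 in treated mice ILB_9577, ILB_9578, ILB_9579, ILB_9582 and ILB_9583. The untreated mice were close to each other and lay within the range of the treated ones. The mean log2 ratio differed between treated and untreated mice by 0.072 for Clec4f, 0.017 for Csf1r, 0.11 for Cd5l, 0.14 for Timd4 and -0.28 for Vsig4, and in all 5 the groups overlapped. Leaving out each mouse in turn was added after the data were seen. Without treated mouse ILB_9583, which had 32 Emr1 reads, the difference was -0.083 for Clec4f, -0.091 for Csf1r, -0.054 for Cd5l, -0.11 for Timd4 and -0.44 for Vsig4. That of Csf1r was also below 0 without ILB_9579 (-0.013), UNT_9575 (-0.0051) or UNT_9576 (-0.00040), and that of Timd4 was -0.19 on Ion Torrent with STAR. The direction of the small differences of Clec4f, Csf1r, Cd5l and Timd4 thus depended on single mice. That of Vsig4 stayed below 0 without any 1 mouse (-0.44 to -0.20).

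For Marco there were 0.375, 0.283, 0.381, 0.416 and 0.388 reads per Emr1 read in the untreated mice and 2.90, 2.67, 1.88, 1.64 and 3.06 in the treated mice. The split of the treated mice seen in the CPM of Marco was narrower in this ratio, 1.64 to 3.06 against 6.16 to 25.9 CPM. Relative to Emr1, Marco was higher by 2.67, Msr1 by 1.81 and Cd68 by 1.13 on the log2 scale, with no overlap for these 3 of 9 genes, with all mice or without any 1 of them. Over all genes tested, 15.2% were higher without overlap in this ratio and 1.19% lower. Emr1 itself had a fitted log2 fold change of -0.60 (adjusted p = 0.0907, edgeR), and Cd68 one of 0.42. A higher ratio to Emr1 thus does not by itself mean that the gene rose. Cd68, which did not pass the test in CPM, was at 0.328 to 0.640 reads per Emr1 read in the untreated and 0.840 to 1.56 in the treated mice. On Ion Torrent with STAR the ratio of Cd68 was higher by 1.0 and the groups overlapped, while those of Marco (2.61) and Msr1 (1.94) did not, beside 8.24% of all genes higher without overlap. Cd163 was higher by 0.63 with overlap. When Csf1r, itself called lower with IL-1β, took the place of Emr1, the difference of Cd163 was 0.61 without overlap. Cd68 (1.12), Marco (2.65) and Msr1 (1.79) were also without overlap with this reference. The share of all genes was not taken for Csf1r as reference, so this separation is not read as particular to these genes.

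**Figure D4:**
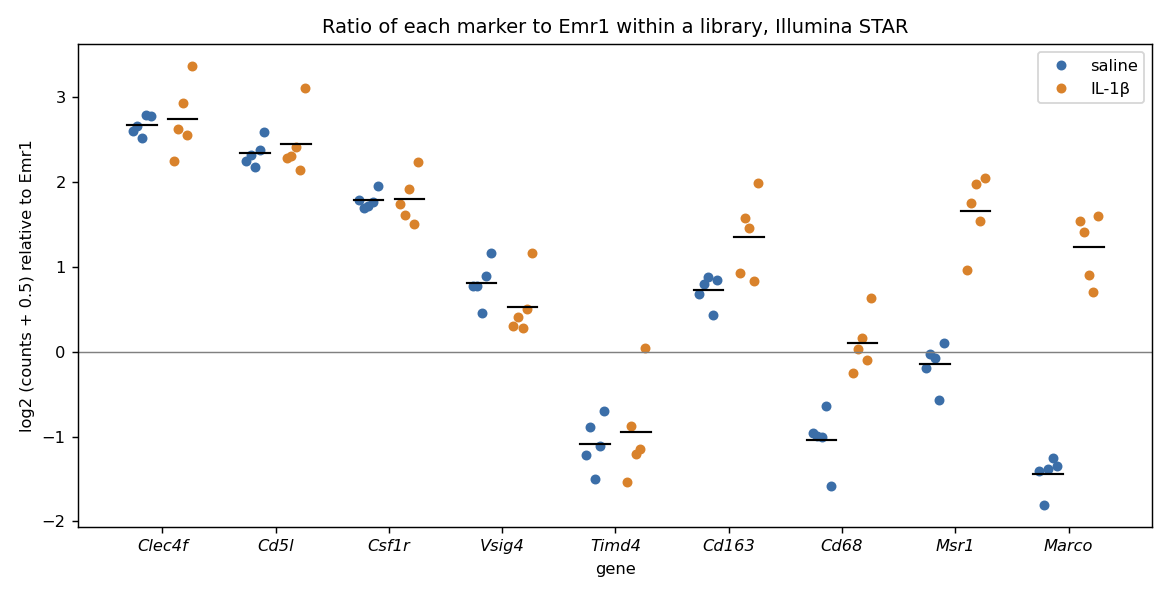
Log2 ratio of each gene to Emr1 within each Illumina STAR library (vertical axis, counts with 0.5 added). Points are mice, blue untreated and orange IL-1β, and short lines are group means. Marco, Msr1 and Cd68 are separated between the groups (mean differences 2.67, 1.81 and 1.13), and the points of Clec4f, Cd5l and Csf1r overlap.

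Levels were compared between genes only as CPM per kilobase of exon, using the exon lengths of the NCBIM37 annotation. In untreated mice the order from the top was Clec4f (22.7 ± 5.25, SD, n = 5), Cd5l (21.7 ± 4.56), Vsig4 (10.4 ± 2.57), Csf1r (5.80 ± 1.49), Cd68 (3.54 ± 1.29), Cd163 (3.26 ± 0.864), Emr1 (2.72 ± 0.732), Msr1 (1.98 ± 0.543), Timd4 (1.90 ± 0.458) and Marco (1.63 ± 0.466). Of the 9 pairs of neighbours in this order, the ranges over mice were apart for 1, Cd5l and Vsig4. After IL-1β Marco had moved from place 10 to place 3, at 7.32 ± 4.31 CPM per kilobase, and Msr1 from 8 to 6, at 4.37 ± 1.40. Csf1r had moved from 4 to 7, at 3.76 ± 1.37. Cd5l (15.2 ± 5.20) and Clec4f (14.9 ± 3.75) remained the first and second, with their places exchanged.

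The genes whose pattern over the 10 mice was most like that of Clec4f were sought among 9277 genes whose mean count reached 50. Likeness was the root mean square difference of log2 CPM relative to the untreated mean. The nearest of all was Cd5l (0.144), and Csf1r was at rank 4 (0.174), while the median over all genes was 0.633. Outside the gene lists the nearest were Tfpi (0.156), Ptgs1 (0.168) and Prkcz (0.185), of which Tfpi encodes an inhibitor of the tissue factor pathway of clotting and Ptgs1 a cyclooxygenase. On Ion Torrent with STAR the differences were 0.170 for Cd5l, 0.128 for Csf1r and 0.178 for Prkcz, but 0.444 for Tfpi and 0.356 for Ptgs1. Emr1 was at rank 88, Vsig4 at 246, and Marco at 9052.

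The other genes of Kupffer cells did not move as one either. Of 12 accessory genes, 0 were called higher and 4 lower, beside 22.7% and 22.9% of all genes. These were Slc40a1 (ferroportin, which exports iron), Mrc1 (the mannose receptor), Mertk (a receptor kinase for the uptake of dying cells) and Aif1. Slc40a1 was at 111 to 173 CPM in untreated and 30.5 to 53.9 CPM in treated mice, without overlap (log2 fold change -1.89, SE 0.17, adjusted p = 6.37e-07). Mrc1 changed by -1.06 (SE 0.18, adjusted p = 0.000167) and Mertk by -0.80 (SE 0.13, adjusted p = 0.000188). For Aif1 the log2 fold change was -0.87 in the Illumina table (adjusted p = 0.0121) and -0.38 on Ion Torrent (adjusted p = 0.386). The complement genes C1qa (0.031), C1qb (0.16) and C1qc (-0.16) did not pass the test. Mrc1 and Slc40a1 are also used by other cells of the liver, Mrc1 by the sinusoidal endothelium.

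Of 8 transcription factors of macrophages, 3 were higher and 2 lower, beside 22.7% and 22.9% of all genes. Id3 (1.78, SE 0.24) and Irf8 (0.74, SE 0.18) were among those that rose. The 2 that were lower were close to the threshold, Maf at -0.43 (SE 0.17, adjusted p = 0.0480, edgeR) and Zeb2 at -0.48 (SE 0.18, adjusted p = 0.0380). Without 1 mouse, the call of Maf held for ILB_9578, UNT_9576 or UNT_9580 left out and that of Zeb2 for ILB_9577, ILB_9578, UNT_9580 or UNT_9584 left out, and each was lost without any other mouse. Both calls were lost in the Mann-Whitney test. Sfpi1, which encodes PU.1, was at 0.650 to 2.497 CPM in untreated and 1.19 to 3.51 CPM in treated mice and did not pass the test (0.78, SE 0.33, adjusted p = 0.0657), but did without ILB_9579 (0.0144) or UNT_9574 (0.0335). Id3 had values of 10.9 to 31.8 CPM in untreated and 60.6 to 101 CPM in treated mice. Some of these genes are not limited to macrophages.

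Ligands of the members were measured beside their receptors. Of the growth factors that bind Csf1r, Csf1 did not pass the test (-0.31, SE 0.18, adjusted p = 0.184), though it did without UNT_9580 (0.0360). Il34 rose by 0.73 (SE 0.25, adjusted p = 0.0277) but not past the threshold on Ion Torrent (adjusted p = 0.0845) or without ILB_9577, UNT_9574, UNT_9575 or UNT_9580 (0.0533 to 0.0955). Hp, which encodes haptoglobin, bound by hemoglobin before uptake through Cd163, rose from a mean of 2491 to 13774 CPM (log2 fold change 2.47, SE 0.15, adjusted p = 7.87e-09). C3, whose fragments Vsig4 binds, rose from 7385 to 16123 CPM (1.13, SE 0.12, adjusted p = 3.10e-06). In treated livers the levels of Hp and C3 were thus higher while Cd163 stood at -0.0048 and Vsig4 at -0.91.

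Markers of other blood cells changed in the same livers, and Cd68 and Msr1 are known in cells of the monocyte lineage too. Of 12 neutrophil genes listed, 8 passed the filter on low counts. For 4 of these 8 the untreated mice alone did not reach the filter in any of the 6 tables, so nothing is read from how many were called. Of the rest, Ltf had 0 reads, Mmp9 0 to 8, S100a9 4 to 16 and Csf3r 15 to 39 in untreated mice on Illumina with STAR. The summed level of the 8 genes was 2.22 to 6.83 CPM in untreated and 51.2 to 115 CPM in treated mice. This sum holds the 4 genes that passed the filter only with the treated mice, so its difference is not read as a result. S100a9 was the most abundant, at 4 to 16 reads in untreated and 221 to 506 in treated mice (0.909 ± 0.468 against 36.5 ± 12.1 CPM, SD, n = 5 each). Mpo, a granule enzyme of this list, had 3 reads or fewer in all. Of 9 monocyte genes tested, for 4 of which the untreated mice alone did not reach the filter, 6 were higher and 1 lower, so this count is not read against the background. With at least 10 reads in 5 libraries, which fewer genes reached, 3 were higher, beside 3411 of all 12008 genes. The number of monocyte genes that reached this filter is not given here, so the 3 are not read against that share. The lower one, Cx3cr1 (-1.43, SE 0.53, adjusted p = 0.0377), had at most 21 reads, and its call was lost without ILB_9578, ILB_9579, ILB_9582, UNT_9574, UNT_9576 or UNT_9584. The sum of the monocyte genes ran from 8.53 to 12.5 CPM in untreated and 18.3 to 33.6 CPM in treated mice. It holds the 4 monocyte genes that untreated mice alone did not bring past the filter, so it is not read either. Plac8, at 53 to 78 reads in untreated and 100 to 144 in treated mice, rose by 1.25 (SE 0.15). The part of neutrophils and monocytes in the change of Marco and Msr1 was not tested.

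The counts that follow stand beside the 22.7% of all genes that were higher and the 22.9% that were lower. Of 12 genes common to leukocytes, 6 were higher and 0 lower. Itgam led them (2.88, SE 0.24), at 0.743 to 1.42 CPM in untreated and 6.65 to 13.1 CPM in treated mice. In the Mann-Whitney test, on counts without TMM scaling, 3 were higher, beside 2142 of all 15578 genes. Without 1 mouse 4 to 7 were higher, beside 3246 to 3526 of all genes. The sums of this list overlapped (137 to 196 against 141 to 228 CPM). Of 7 lymphocyte genes tested, 0 were higher and 2 lower. For 4 of these 7 the untreated mice alone did not reach the filter, so this count is not read against the background. The sums of the lymphocyte genes, which hold these 4, were 3.20 to 5.24 CPM in untreated and 1.21 to 3.37 CPM in treated mice. Of 11 genes of the sinusoidal endothelium, which lines the vessels that Kupffer cells sit in, 2 were higher and 4 lower. Lyve1 rose by 1.49 (SE 0.21), and Kdr fell by 1.68 (SE 0.21) on the log2 scale. Of 8 stellate cell genes, 1 was higher (Ngfr, 1.36, SE 0.24) and 2 lower (Lrat, -1.25, SE 0.18, and Reln, -0.53, SE 0.14). Of 8 hepatocyte genes, 1 was higher (Tat, 1.51) and 5 lower, among them Cps1 (-0.89) and Alb (-0.53). The hepatocyte sum was 92887 to 112804 CPM in untreated and 69023 to 83422 CPM in treated mice. The part of these other cell types in the values of the 10 genes was not tested.

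**Figure D5:**
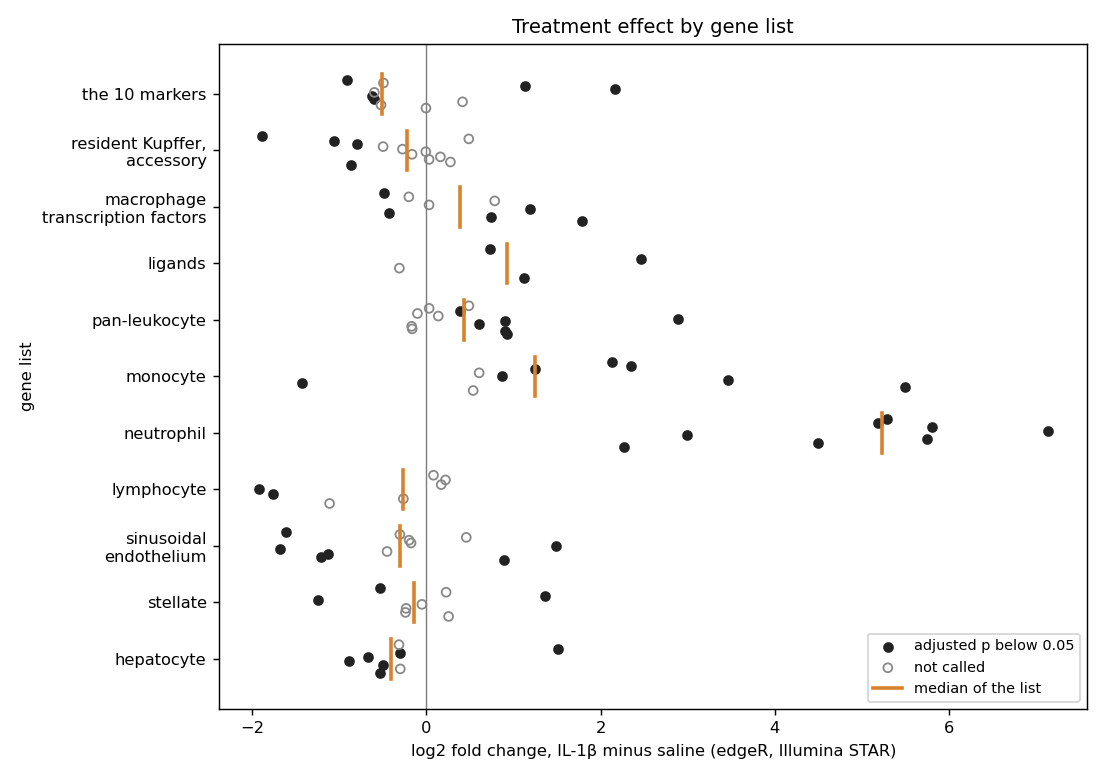
Log2 fold change, IL-1β minus untreated, of the genes of each list (horizontal axis, edgeR, Illumina STAR). Filled points have an adjusted p below 0.05, open points do not, and orange lines are list medians. The median is -0.51 for the 10 markers, of which 3 lie above 0 and 7 below.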

How the data were processed

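RNA from the livers of 10 male mice was sequenced as strand-specific poly-A libraries on Illumina HiSeq and Ion Torrent Proton instruments. The authors aligned the reads to mm9 with STAR 2.5.1b, GSNAP or STAR followed by Bowtie2 2.2.9 (versions and build from the submitters' processing notes). With PORT they removed rRNA and mitochondrial reads and drew the libraries of each table down to an equal number of gene reads. The deposited values are whole-number counts per gene. All 60 columns were used, with totals of 10568530 to 12008799 for Illumina and 12199528 to 16439683 for Ion Torrent. Re-sampling removes reads from deeper libraries, and treatments were compared only within a table.

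The 15578 genes that reached 5 reads in 5 of the 10 libraries of any table entered edgeR's quasi-likelihood test, with TMM scaling. This test gives no standard error. The SE printed beside an edgeR value is its absolute log2 fold change divided by the square root of the F statistic. The fit was checked on simulated data. Each group held 5 separate mice, so p-values measure the spread between animals. The study used a Mann-Whitney test, which was run as an alternative on the counts without TMM scaling. The 2 libraries of a mouse come from the same RNA. Their deviations from the group means correlated at r = 0.543 to 0.699 for 9 mice and 0.238 for mouse UNT_9584. The study reports lower correlations between platforms for this sample, and shifted read lengths on Ion Torrent. The members and gene lists were chosen with earlier results of these data known. Named genes were all members and ligands, up to 4 genes of each other list with the largest absolute log2 fold change at a mean count of 10 or more, and the 3 genes most like Clec4f. Some genes that this rule takes are not reported here. C1qa, C1qb, C1qc, Maf, Zeb2, Cx3cr1, Ltf, Mmp9 and Csf3r were named beyond that rule after their values were seen. Positions and exon lengths came from the GENCODE annotation of NCBIM37 and promoters from RefSeq (GRCm38.p6). Alternatives were RLE or no scaling, DESeq2, limma-voom, other filters, the other tables, another pseudocount or reference gene, and leaving out each mouse (for the ratios to Emr1 added after the data were seen). edgeR 4.0.16, DESeq2 1.42.0 and limma 3.58.1 ran under R 4.3.3, with pandas 2.3.3 and scipy 1.17.1 for summaries and matplotlib 3.10.9 for figures.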

Additional observations from a re-analysis of the deposited data

Results flagged for a closer look

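Of 192 groups of 5 mice checked by Dixon's test at the 95% level, 11 had a mouse far from the other 4, and chance alone gives about 1 in 20. Of the 11, 8 were untreated mouse UNT_9574 standing above the other untreated mice. For Csf1r on Illumina it was at 43.9 CPM with STAR (others 24.2 to 29.3), 41.0 CPM with GSNAP and 40.2 CPM with STAR + Bowtie2. For Clec4f on Ion Torrent it was at 91.7 CPM with STAR (others 55.5 to 62.2), 90.4 CPM with GSNAP and 86.9 CPM with STAR + Bowtie2. For Cd68 on Ion Torrent it was at 6.38 CPM with STAR (others 3.71 to 4.20) and 6.75 CPM with STAR + Bowtie2. These tables hold the same mouse, so they are not separate observations. The other 3 were Il34 at 5.03 CPM in treated mouse ILB_9577 (others 2.07 to 2.88), Il34 at 2.23 CPM in untreated mouse UNT_9576 (others 1.60 to 1.77) and Tek, an endothelial receptor, at 5.42 CPM in treated mouse ILB_9578 (others 1.89 to 2.66), all on Illumina with STAR.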

How the results depend on the processing

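Clec4f, Marco, Msr1 and Vsig4 kept their direction and their call in all alternatives run, and Cd68 stayed uncalled with a value above 0. Cd5l became called with RLE size factors (-0.52, adjusted p = 0.0486), no scaling (-0.65, 0.0266), DESeq2 (-0.52, 0.0401), GSNAP on Illumina (-0.51, 0.0484), STAR on Ion Torrent (-0.58, 0.0437) and no filter (-0.52, 0.0386). Csf1r lost its call in the Mann-Whitney test (log2 ratio of mean counts -0.80, q = 0.0722). The cause was not tested. Without scaling the median over all genes above a mean count of 10 was -0.12 on the log2 scale, against 0.0046 with TMM.

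Leaving out each mouse in turn gave ranges of -0.25 to 0.13 for Cd163, -0.68 to -0.37 for Cd5l, -0.82 to -0.46 for Csf1r, -0.80 to -0.44 for Emr1 and -0.68 to -0.32 for Timd4, and 2 to 5 members called lower. There were 5 without mouse ILB_9577 or ILB_9578, and 2 without UNT_9574, ILB_9579, ILB_9582 or ILB_9583. Members called higher stayed at 2. Over all 15578 genes tested, these fits called 3253 to 3494 lower and 3246 to 3526 higher. Over the other settings the transcription factors called lower numbered 0 to 2, beside 3392 to 4335 of all genes, with 12008 to 19704 tested.

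No mouse is in both treatments, so the treatment comparison has no pairing. Without the replicate block the platform-by-treatment term was called for 0 members, as with it. The term of Csf1r was 0.056 with STAR and -0.031 with GSNAP. Without 1 mouse, terms ran from -0.018 to 0.11 for Clec4f, -0.11 to 0.099 for Cd68, -0.29 to 0.036 for Marco, -0.070 to 0.14 for Vsig4 and -0.080 to 0.028 for Cd5l, with 0 calls. Depth limits Timd4, at 14 to 65 reads per Illumina STAR library.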
